A study of Mus musculus with 12 samples.

Results

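The 10 genes examined here handle cholesterol and other lipids in phagocytes. They were chosen by name, with earlier results of these data known, so their shared direction is not independent support. *Cd36*, *Msr1* and *Lpl* serve uptake, and *Abca1*, *Abcg1* and *Apoe* efflux. *Nr1h3* and *Ch25h* belong to sterol sensing, and *Soat1* and *Plin2* to storage. The count table holds 49315 genes, and all 10 were among the 20290 genes tested. The libraries are bulk RNA-sequencing of brain tissue taken 14 d post-stroke from 12 male mice, of which 6 had received WT bone marrow (BM) cells and 6 *Tet2*-KO BM cells. The recipients of both groups were CD45.1 Pep Boy mice with intact *Tet2*, aged 8 to 12 weeks, irradiated with the head shielded. In the *Tet2*-KO group 10% of the marrow came from CD45.2 *Tet2*-/- donors and 90% from CD45.1 *Tet2*+/+ donors, whereas in the WT group the 10% from CD45.2 donors was *Tet2*+/+ as well. All 12 mice had the right middle cerebral artery occluded for 30 min, 8 to 10 weeks after the transplant. The deletion was therefore limited to part of the blood cells and their descendants, and brain-resident cells kept *Tet2*. No sham-operated or unoperated brains are among the 12 libraries.

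When phagocytes clear myelin and dead cells after a stroke, they take in lipid through scavenger receptors such as CD36 and MSR1, and lipoprotein lipase frees fatty acids from lipoproteins. Excess cholesterol is esterified by SOAT1 and kept in droplets coated by PLIN2, or leaves the cell through the transporters ABCA1 and ABCG1 onto particles that carry apolipoprotein E. Oxysterols bind the nuclear receptor LXR alpha, encoded by *Nr1h3*, which with RXR switches on *Abca1*, *Abcg1* and *Apoe*. CH25H makes the oxysterol 25-hydroxycholesterol. *Apoe* is also highly expressed by astrocytes, and *Cd36* by endothelial cells and platelets.

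The promoter sequences of the genes are shown first because nuclear receptors of lipids bind direct repeats of the letters AGGTCA. RefSeq gives 10 start-site windows for 7 of the genes, each from 250 bases before to 50 bases after the start (GRCm38.p6), and none for *Msr1*, *Lpl* or *Abcg1*. Both strands were searched for the repeat with 4 bases between its copies, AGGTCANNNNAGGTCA, which LXR with RXR binds, and for the repeat with 1 base between them, AGGTCANAGGTCA, which PPAR with RXR binds. The first was found with up to 3 mismatches in the window of *Abca1*, from 67 to 52 bases before the start, as it was in 21.9% of all 32851 windows. With up to 2 mismatches it was in none of the 10 windows and in 3.02% of all. The second was found with up to 2 mismatches in the windows of *Cd36*, from 63 to 51 bases before the start, and of *Plin2*, from 225 to 213 bases before it, and in 3.86% of all windows. The 100 bases around each match are printed below from the strand of the gene, with the match in capitals. All these matches lie on the strand opposite to the gene.
Abca1 (chr4:53159905-53160004, minus strand): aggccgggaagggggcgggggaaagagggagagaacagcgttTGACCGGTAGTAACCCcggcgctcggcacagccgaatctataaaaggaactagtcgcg
Cd36 (chr5:17835904-17836003, minus strand): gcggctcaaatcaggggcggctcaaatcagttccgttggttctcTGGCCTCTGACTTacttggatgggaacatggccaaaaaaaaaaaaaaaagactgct
Plin2 (chr4:86670210-86670309, minus strand): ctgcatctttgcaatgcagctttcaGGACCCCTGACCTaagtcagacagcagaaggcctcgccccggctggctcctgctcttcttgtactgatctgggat

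Further motifs were searched in the same windows. The sterol response element ATCACNCCAC with up to 1 mismatch (5.34% of all windows), the PU.1 core GAGGAAGT (3.20%) and the AP-1 site TGANTCA (7.81%) had no match in the 10 windows. The letters CCAAT were in a window of *Soat1*, *Plin2* and *Cd36*, and in 37.4% of all. A match is a stretch of letters and was not tested as a site of binding.

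Total counts per mouse were 12000261 to 15340787 in the WT group and 12625047 to 21049763 in the *Tet2*-KO group. For the 10 genes the counts per mouse ranged from 4 (*Msr1*) to 63327 (*Apoe*). *Tet2* itself stood at 132 ± 7.60 and 131 ± 7.79 CPM (SD, edgeR adjusted p = 0.934), and since recipients and most marrow cells carried it, its level does not check the labels. The *Tet2*-KO mice are labelled with control cells under treatment and with the knockout in their titles and genotype, and the last 2 were used. In each group 1 mouse stood apart upwards for these genes, WT replicate 2 and *Tet2*-KO replicate 5, and results are also given without them.

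All 10 genes, as against 47.7% of all tested genes, had a lower estimated level with *Tet2*-KO than with WT BM cells, by log2 fold changes from -1.73 (*Cd36*) to -0.46 (*Soat1*). Their median was -0.998, where the median over all tested genes was 0.01, and each lay within the lowest 7.83% of all log2 fold changes. In edgeR's quasi-likelihood test the unadjusted p was under 0.05 for all 10, between 3.61e-05 and 0.0401, in the direction and at the threshold that 12.2% of all tested genes met. After Benjamini-Hochberg adjustment over all genes, 0 of the 10 passed 0.05 (adjusted p between 0.0752 and 0.197), as against 0.0246% of tested genes, 5 in number, that passed with a lower level. Other tests gave more calls, 3 of the 10 with DESeq2 on the same genes (4.81% of genes lower), 5 with DESeq2 on every gene with a count (3.38%) and 9 with limma-voom (7.01%). Tissue was sequenced in bulk, so fewer cells of a type and less RNA per cell cannot be told apart.

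**Figure D1:**
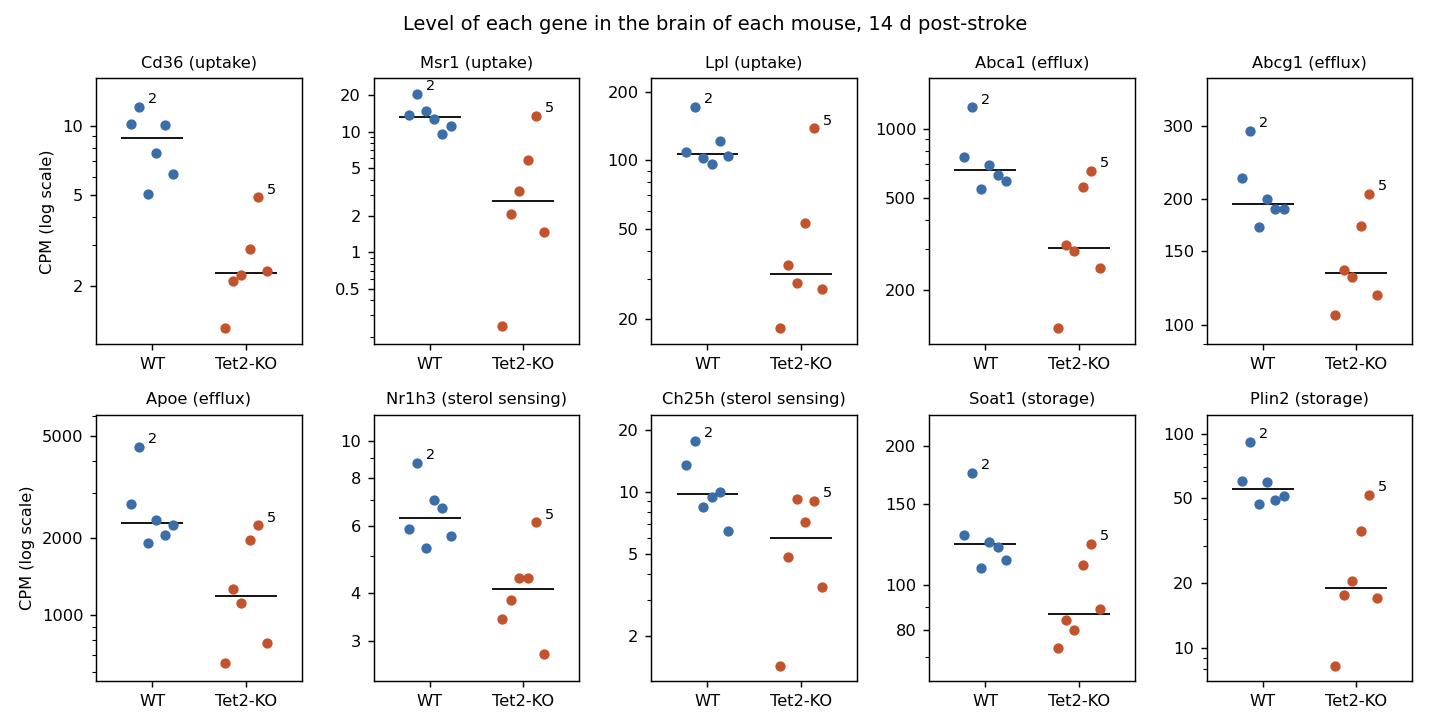
Level of each gene in each of the 12 mice, in CPM on a log axis, with a horizontal line at the median of each group and the numbers marking WT replicate 2 and *Tet2*-KO replicate 5. WT replicate 2 is the highest WT mouse in all 10 panels, *Tet2*-KO replicate 5 is the highest of its group in 9, and the groups are fully separate for *Cd36*.

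Among the uptake genes, *Cd36* (ENSMUSG00000002944, chr5:17781690-17888801, minus strand) encodes a receptor for long-chain fatty acids and oxidised lipoproteins. Its level was lowest at 5.03, median 8.86 and highest at 12.1 CPM over the 6 WT mice, and lowest at 1.30, median 2.26 and highest at 4.86 CPM over the 6 *Tet2*-KO mice. It was the one gene of the 10 whose groups did not overlap, a pattern found with this direction for 0.641% of all tested genes, although the gap between the nearest mice, 4.86 and 5.03 CPM, was narrow. The means were 8.54 ± 2.71 CPM (SD, n = 6) and 2.61 ± 1.21 CPM (SD, n = 6). WT was 3.31-fold above *Tet2*-KO, with a log2 fold change of -1.73 (standard error 0.28, 95% interval -2.34 to -1.12, edgeR adjusted p = 0.0752). The exact two-sided permutation test of the 12 mice gave p = 0.00216, the smallest that 924 assignments allow.

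*Msr1* (ENSMUSG00000025044, chr8:39581685-39642673, minus strand) encodes the class A scavenger receptor of macrophages. It lay at 9.48, median 13.3 and up to 20.7 CPM in WT mice, and at 0.248, median 2.66 and up to 13.6 CPM in *Tet2*-KO mice. The lowest of these rests on 4 reads and the highest *Tet2*-KO mouse, replicate 5, stood at the WT median, so the *Tet2*-KO mice spanned 54.8-fold. Of the 6 *Tet2*-KO mice, 5 lay under the WT range. Its log2 fold change of -1.68 had a wide error (standard error 0.60, 95% interval -3.00 to -0.36, edgeR adjusted p = 0.150, exact permutation p = 0.00866).

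*Lpl* (ENSMUSG00000015568, chr8:68880491-68907448, plus strand), the lipoprotein lipase, was at 96.1, median 106 and up to 171 CPM in WT mice. In *Tet2*-KO mice it was at 18.3, median 31.7 and up to 138 CPM. The group split into 5 mice at or under 53.0 CPM and replicate 5, which at 130% of the WT median exceeded 5 of the 6 WT mice. Its log2 fold change was -1.24 with all mice (standard error 0.45, edgeR adjusted p = 0.156, exact permutation p = 0.0130) and -1.85 without that one (adjusted p = 0.00736).

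Among the efflux genes, *Abca1* (ENSMUSG00000015243, chr4:53030787-53159895, minus strand) encodes the transporter that loads cholesterol and phospholipid onto lipid-poor apolipoproteins. It was at 549, median 663 and up to 1241 CPM in WT mice and at 136, median 303 and up to 655 CPM in *Tet2*-KO mice. Replicates 4 and 5 of the *Tet2*-KO group lay inside the WT range, and the other 4 below it. WT was 2.02-fold above *Tet2*-KO (log2 fold change -1.02, standard error 0.37, edgeR adjusted p = 0.152, exact permutation p = 0.0152).

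*Abcg1* (ENSMUSG00000024030, chr17:31057675-31117988, plus strand), the transporter that passes cholesterol to mature lipoprotein particles, differed less. It was at 172, median 195 and up to 292 CPM in WT mice and at 106, median 133 and up to 206 CPM in *Tet2*-KO mice, of which 4 were below every WT mouse. The log2 fold change, -0.55, had a standard error of 0.18 (edgeR adjusted p = 0.131, exact permutation p = 0.0195).

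*Apoe* (ENSMUSG00000002985, chr7:19696109-19699188, minus strand), the main apolipoprotein of the brain, was at 1917, median 2294 and up to 4542 CPM in WT mice. In *Tet2*-KO mice it was at 649, median 1191 and up to 2246 CPM, again with replicates 4 and 5 inside the WT range. The means were 2637 ± 972 CPM (SD, n = 6) and 1337 ± 643 CPM (SD, n = 6). WT was 1.97-fold above *Tet2*-KO (log2 fold change -0.98, standard error 0.34, edgeR adjusted p = 0.145, exact permutation p = 0.0152).

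**Figure D2:**
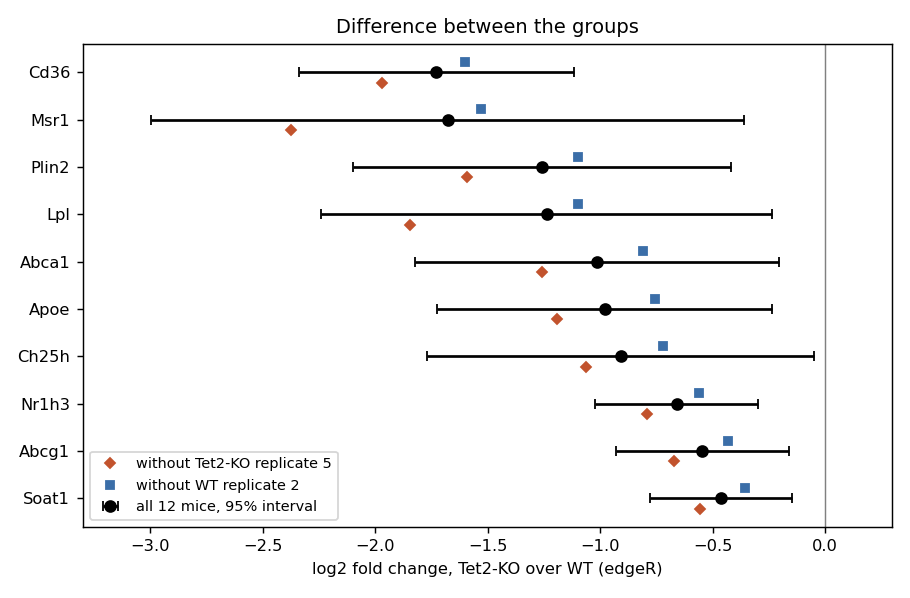
Log2 fold change of each gene, *Tet2*-KO over WT, from edgeR with all 12 mice (black, with 95% interval), without *Tet2*-KO replicate 5 (diamonds) and without WT replicate 2 (squares). The 10 intervals lie below 0, the diamonds lie further from 0 than the black points for all 10 genes and the squares nearer to it.

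Of the sterol-sensing genes, *Nr1h3* (ENSMUSG00000002108, chr2:91184061-91202834, minus strand), which encodes LXR alpha, was at 5.24, median 6.27 and up to 8.75 CPM in WT mice. It was at 2.77, median 4.11 and up to 6.12 CPM in *Tet2*-KO mice, with 5 of the 6 below every WT mouse. Its log2 fold change of -0.66 had one of the smaller errors (standard error 0.17, edgeR adjusted p = 0.110, exact permutation p = 0.00866). *Nr1h3* shares 34 exonic bases with *Gm13783* on the same strand, so reads there cannot be told apart.

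*Ch25h* (ENSMUSG00000050370, chr19:34473778-34475164, minus strand) is a gene of 1 exon and encodes cholesterol 25-hydroxylase. It was at 6.43, median 9.72 and up to 17.6 CPM in WT mice and at 1.43, median 5.95 and up to 9.21 CPM in *Tet2*-KO mice. Its groups overlapped most, since 3 of the 6 *Tet2*-KO mice lay inside the WT range. It had a log2 fold change of -0.91 (standard error 0.39, 95% interval -1.77 to -0.05, edgeR adjusted p = 0.197, exact permutation p = 0.0368). It shares 159 exonic bases with *Gm26902* on the opposite strand, and the strand setting of the counting is not given in the sources used here, so its count is uncertain.

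Of the storage genes, *Soat1* (ENSMUSG00000026600, chr1:156424525-156474331, minus strand), which esterifies cholesterol in the endoplasmic reticulum, had the mildest difference of the 10. It was at 109, median 123 and up to 175 CPM in WT mice and at 73.1, median 86.5 and up to 123 CPM in *Tet2*-KO mice, with 4 of these below every WT mouse. WT was 1.38-fold above *Tet2*-KO (log2 fold change -0.46, standard error 0.15, edgeR adjusted p = 0.128, exact permutation p = 0.0173).

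*Plin2* (ENSMUSG00000028494, chr4:86648386-86670060, minus strand) encodes the coat protein of lipid droplets. It was at 47.2, median 55.4 and up to 91.6 CPM in WT mice and at 8.24, median 19.0 and up to 51.8 CPM in *Tet2*-KO mice. All of the latter but replicate 5 were under the WT range. WT was 2.39-fold above *Tet2*-KO (log2 fold change -1.26, standard error 0.38, edgeR adjusted p = 0.126, exact permutation p = 0.00866). By role, the log2 fold changes ran from -1.73 to -1.24 for the 3 uptake genes, from -1.02 to -0.55 for the 3 efflux genes, from -0.91 to -0.66 for the 2 sterol-sensing genes and from -1.26 to -0.46 for the 2 storage genes. Differences between the roles were not tested.

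The same mice held the same places for nearly all the genes. *Tet2*-KO replicates 1, 2 and 6 were below every WT mouse for all 10 genes, replicate 3 for 9 and replicate 4 for 5. The share of all tested genes for which each of these mice was below every WT mouse was not computed. *Tet2*-KO replicate 1 was the lowest of its group for 9 genes, the exception being *Nr1h3*, and stood at 1.86% of the WT median for *Msr1*, 14.7% for *Cd36*, 14.9% for *Plin2* and 59.6% for *Soat1*. *Tet2*-KO replicate 5 was the highest of its group for 9 genes, the exception being *Ch25h*, and lay inside the WT range for 9. Its level was between 92.8% and 130% of the WT median for those 9 genes and at 54.9% for *Cd36*. In the WT group, replicate 2 was the highest mouse for all 10. The coefficient of variation, the SD over the mean, was larger among *Tet2*-KO mice for every one of the 10. It lay between 20.8% and 111%, as against 18.6% to 37.0% among WT mice. The SD itself was larger among *Tet2*-KO mice only for *Msr1* (4.88 against 3.88 CPM in WT mice) and *Lpl* (44.6 against 27.8 CPM). For the other genes it was larger among WT mice, whose means were higher. The share of all tested genes with a larger coefficient in *Tet2*-KO mice was not computed.

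Without *Tet2*-KO replicate 5 the median log2 fold change of the 10 genes was -1.22, and 9 of the 10 passed edgeR's threshold after adjustment, where 7.3% of all tested genes did with a lower level. The exception was *Ch25h* (log2 fold change -1.06, adjusted p = 0.117). With that mouse left aside, 5 of the genes (*Cd36*, *Msr1*, *Lpl*, *Nr1h3* and *Plin2*) had all remaining *Tet2*-KO mice under the WT range, a pattern of 4.78% of tested genes. *Tet2*-KO replicate 5 was singled out for its high levels of these same genes. Leaving it out therefore widens the difference by construction, and these counts are not separate support. Leaving out any other single mouse gave 0 calls among the 10. Without WT replicate 2 the median was -0.78, and the unadjusted edgeR p of *Abca1* (0.0515) and *Ch25h* (0.104) rose over 0.05.

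Levels can be compared between genes only per length, and were computed as FPKM over the summed exons of GENCODE M21. In WT mice *Apoe* had the highest median level, 1073 FPKM, followed by *Abca1* at 64.0 and *Abcg1* at 26.7 FPKM. These steps held in 6 of 6 mice with ranges that did not overlap. *Plin2* (15.8 FPKM), *Soat1* (12.5), *Lpl* (10.1) and *Ch25h* (7.01) came next, each above its follower in all 6 WT mice but with ranges that overlapped between neighbours. *Nr1h3* (2.49 FPKM), *Cd36* (2.47) and *Msr1* (2.10) were the lowest, all 6 mice having *Nr1h3* under the range of *Ch25h*, and their order among themselves held in 4 of 6 mice at each step.

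In *Tet2*-KO mice the median of *Apoe* was 557 FPKM, of *Abca1* 29.2 and of *Abcg1* 18.2, in the same order. *Soat1* (8.84 FPKM) stood above *Plin2* (5.42), in 5 of 6 mice, where it had been below it in WT mice. *Ch25h* (4.29 FPKM) and *Lpl* (3.03) followed, and their order held in 3 of 6 mice, with overlapping ranges. *Cd36* and *Msr1* were at the bottom with 0.631 and 0.419 FPKM, under *Nr1h3* at 1.63. With the length of the longest transcript in place of the summed exons, 5 of the 10 genes changed their place in the WT order and 4 in the *Tet2*-KO order, among them *Lpl*, which then stood above *Soat1* in all 6 WT mice. *Soat1* and *Plin2* were then at 10.3 and 10.1 FPKM in *Tet2*-KO mice, in this order in 3 of 6.

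**Figure D3:**
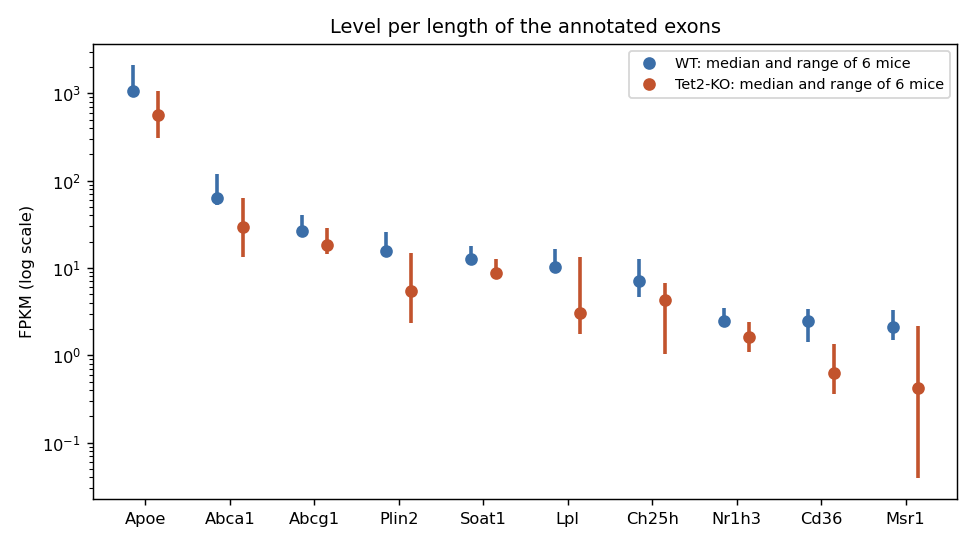
Level of the 10 genes per length of their annotated exons, in FPKM on a log axis, with the median (point) and the range (bar) of the 6 mice of each group. *Apoe* stands far above the rest in both groups and *Msr1* has the widest *Tet2*-KO range.

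The levels of the 10 genes moved together from mouse to mouse also within the groups. After the group means were taken away, the Pearson correlation of log2 CPM over the 12 mice was above 0 for all 45 pairs of genes, between 0.69 and 0.98 with a median of 0.86, and above 0.8 for 32 pairs. The closest pairs were *Abca1* with *Plin2* (0.98), *Abcg1* with *Apoe* (0.98) and *Abca1* with *Apoe* (0.97). *Ch25h* with *Soat1*, *Lpl* with *Ch25h* and *Msr1* with *Nr1h3* were the least alike, at 0.69 each. The median over pairs was 0.82 within the WT mice and 0.92 within the *Tet2*-KO mice. These values describe 12 libraries that share WT replicate 2 and *Tet2*-KO replicates 1 and 5 as extremes. The same correlation between pairs of other tested genes was not computed, so the values do not set the 10 genes apart. Genes outside the 10 reached 0.94 to 0.99 with single genes of the 10.

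**Figure D4:**
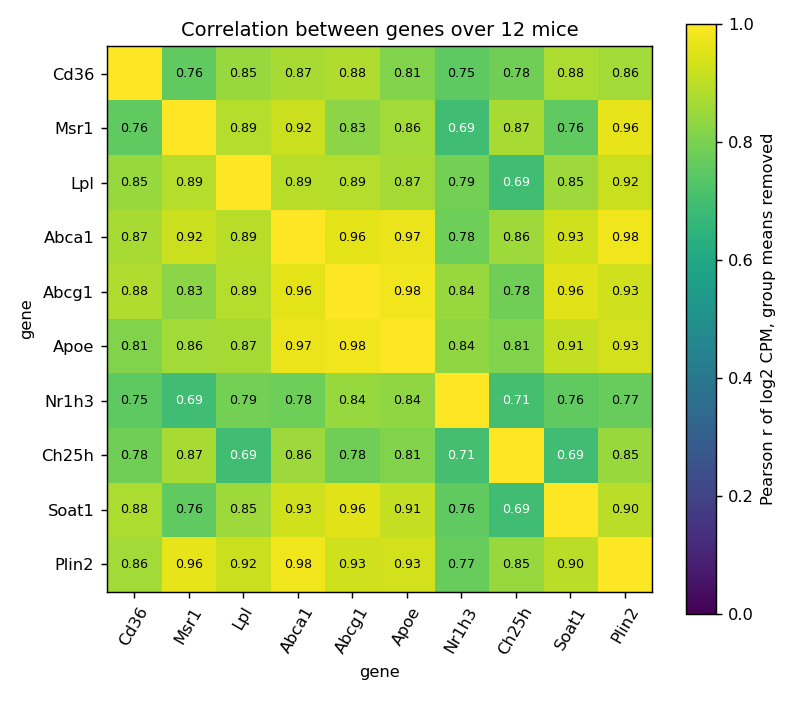
Pearson correlation between each pair of the 10 genes over the 12 mice, computed on log2 CPM after the mean of each group was taken away. All 45 pairs are above 0, and *Nr1h3* and *Ch25h* have the lowest correlations with the other genes.

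For each gene, the 3 tested genes outside the 10 with the highest such correlation were listed, 30 genes in all with correlations between 0.94 and 0.99. The nearest to *Abca1* were *C1qb*, a chain of complement C1q, *Ctss*, the lysosomal protease cathepsin S, and *Akna*. *Apoe* was nearest to *Notch2*, *Arhgap45* and *Tln1*, and *Abcg1* to *Adcy7*, *Fnip2* and *Cotl1*. *Lpl* was nearest to *Spp1*, which encodes osteopontin (0.99), then to *Usp25* and *Srgap2*. *Plin2* was nearest to *Fcgr2b*, the inhibitory Fc gamma receptor (0.99), *Wdfy4* and *Csf2rb2*, and *Msr1* to *Ifi208*, *Nlrc5* and *Plbd1*. *Cd36* was nearest to *Cenpe*, a kinetochore motor protein (0.96), *Gm26764* and *Cnn2*. *Nr1h3* was nearest to *A930007I19Rik*, *Ehbp1l1* and *Ddx21*, *Ch25h* to *Pik3r5*, *Rac2* and *Ticam2*, and *Soat1* to *Gpr137b*, *Cpq* and *Ankrd44*. With Spearman in place of Pearson correlation the order changed. For *Plin2*, *Fcgr2b* then ranked 160, *Csf2rb2* 341 and *Wdfy4* 7, and for *Cd36*, *Cenpe* ranked 3. All 30 had a log2 fold change below 0, and 27 of them an unadjusted edgeR p under 0.05. Of all tested genes, 47.7% were below 0 and 12.2% were lower at that p. The 30 were picked from the same mice for following the 10 genes, so these counts are not separate support.

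Further lipid genes were followed in 6 lists of 97 genes, of which 89 were tested. Of these, 33 were lower and 4 higher with *Tet2*-KO BM cells at an unadjusted p under 0.05, where 12.2% of all tested genes were lower and 10.8% higher, and 0 passed the adjusted threshold of edgeR (16 did with DESeq2, against 7.51% of all genes, and 26 with limma-voom, against 9.92%). The median log2 fold change of the 89 was -0.10. The lists differed widely in how many genes were lower, as the plot of the lists shows.

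**Figure D5:**
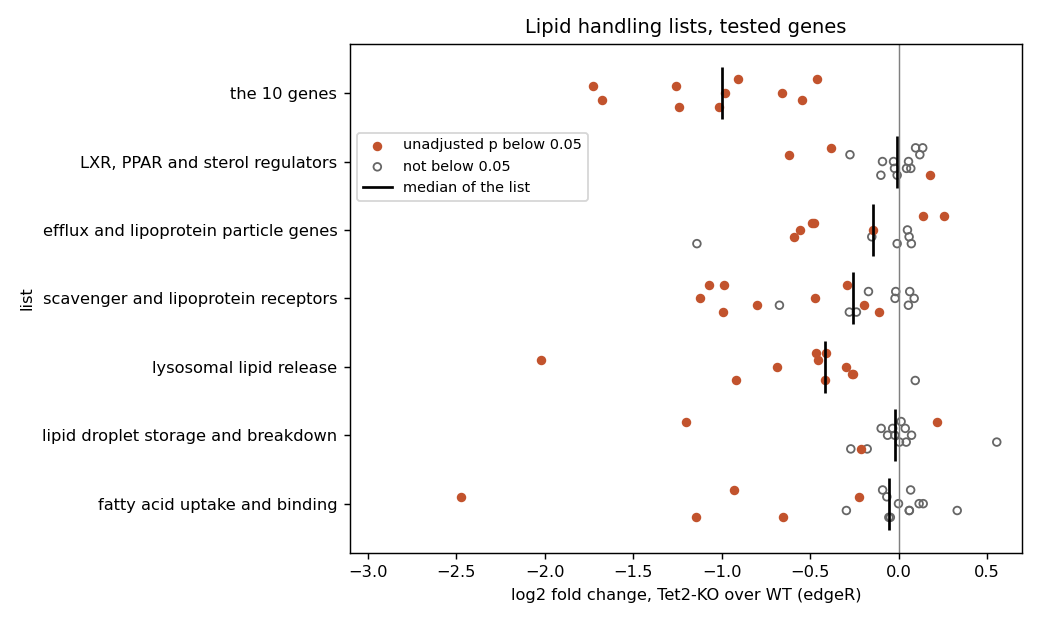
Log2 fold change (edgeR, *Tet2*-KO over WT) of every tested gene of the 10 and of the 6 lists, 1 row per list, with filled points for an unadjusted p below 0.05 and a bar at the median. The lysosomal list has 10 of 11 genes lower at that threshold, and the regulator, droplet and fatty acid lists have medians near 0.

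Of the genes listed under lysosomal lipid release, 10 of 11 were lower at an unadjusted p under 0.05, with a median of -0.41. Not all of the 11 are enzymes that free lipid, and *Gpnmb* is also counted among the activated phagocyte markers below. *Psap*, the precursor of the saposins, had median levels of 1676 and 1307 CPM (WT and *Tet2*-KO, log2 fold change -0.41). Of the scavenger and lipoprotein receptors, 9 of 18 were lower and 0 higher, with a median of -0.26. *Scara5*, a ferritin-binding scavenger receptor, was at medians of 5.65 and 2.01 CPM (-1.07), and *Cxcl16*, a chemokine that in its membrane form binds oxidised lipoprotein, at 17.4 and 8.87 CPM (-1.12).

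Of the further efflux and lipoprotein genes, 5 of 13 were lower and 2 higher (median -0.15). The phospholipid transfer protein *Pltp* was lower (log2 fold change -0.56) and so was the transporter *Abca7* (-0.15). *Cyp46a1*, the neuronal enzyme that turns cholesterol into 24-hydroxycholesterol, was higher (0.25), as was the transporter *Abcg4* (0.14). Of the fatty acid genes, 5 of 17 were lower and 0 higher (median -0.05). The fatty acid binding protein *Fabp5* was at medians of 51.2 and 29.0 CPM (log2 fold change -0.93), and 5 of the 6 *Tet2*-KO mice lay under the WT range. *Fabp4* was at 2.98 and 0.300 CPM with no read in 1 *Tet2*-KO mouse.

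Of the regulators, 2 of 15 were lower and 1 higher, with a median of -0.01. Over all tested genes 12.2% were lower and 10.8% higher at that threshold. The counts of this list and of the droplet list are near those shares. The LXR and PPAR partner *Rxra* was lower (log2 fold change -0.38), as was *Mylip* (-0.62), the LXR target that marks LDL receptors for degradation, and the transporter *Abca5* was higher (0.18). The other LXR gene, *Nr1h2*, did not pass (-0.10), nor did *Pparg* (0.12). Of the droplet genes, 2 of 15 were lower (*Soat2*, -1.20, with at most 23 reads in a mouse, and the lipase cofactor *Abhd5*, -0.21) and 1 higher (the triglyceride synthase *Dgat2*, 0.22), with a median of -0.02. The medians of the regulator and droplet lists turned to 0.03 and 0.01 with upper quartile scaling, which moved the median of all genes from 0.01 to 0.04.

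Most markers of phagocytes had log2 fold changes below 0, as the 10 genes had. All 8 pan macrophage markers were lower, 6 at an unadjusted p under 0.05, with a median log2 fold change of -0.83, and their summed level ran from 560.0 to 1052 CPM in WT mice and from 168 to 684 CPM in *Tet2*-KO mice. The highest of these were again WT replicate 2 and *Tet2*-KO replicate 5, and the lowest was *Tet2*-KO replicate 1. The medians were -1.24 for 7 activated phagocyte markers (833 to 2018 against 89.97 to 1243 CPM), -1.71 for 8 infiltrating monocyte markers (755 to 1756 against 181 to 952 CPM), -0.72 for 6 border-associated macrophage markers and -0.21 for 8 homeostatic microglia markers (644 to 1162 against 319 to 841 CPM). Of all tested genes, 12.2% were lower at an unadjusted p under 0.05 and 10.8% higher. At that threshold, 3 of the 6 border-associated markers and 1 of the 8 microglia markers were lower, the latter near the share of all genes. *Cd163* (0.04), *Lyve1* (0.22) and *P2ry12* (0.05) had log2 fold changes above 0. The part of the phagocyte markers in the lower levels of the 10 genes was not tested. Of the other cell types, 6 astrocyte markers had a median of 0.01 (summed 5364 to 5536 against 5310 to 6009 CPM), 6 reactive astrocyte markers -0.79, 6 endothelial markers -0.09, 6 oligodendrocyte markers 0.01 and 8 neuron markers 0.24. At the same threshold 7 of the neuron markers were higher and 0 lower. Of the endothelial markers 2 were lower (*Cldn5*, -0.45, and *Cdh5*, -0.37) and 0 higher. *Slco1a4* (0.11) and *Ly6c1* (0.21) had log2 fold changes above 0. White fat markers were near 0 in every mouse, with 0 of 6 tested, *Adipoq* at 0 reads throughout and a summed level of at most 1.31 CPM.

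Relative to the summed pan macrophage markers of the same mouse, the 10 genes differed in direction. *Cd36* stood at 0.898% to 1.73% of that sum in WT mice and at 0.526% to 0.842% in *Tet2*-KO mice, without overlap. *Plin2* stood at 8.32% to 10.1% and at 4.85% to 7.57%, also without overlap. The other 8 genes overlapped between the groups. The share of all tested genes without overlap after the same division was not computed, so the separation is not shown to be particular to these genes. The largest part of the sum was *Csf1r* (median 243 CPM in WT and 165 CPM in *Tet2*-KO mice). For *Abcg1*, *Nr1h3* and *Soat1* the median share was higher in *Tet2*-KO mice, by 1.17, 1.08 and 1.198 times, and for the other 7 it was lower, down to 0.378 times for *Msr1*. The median of the sum itself was 590 CPM in WT mice and 350 CPM in *Tet2*-KO mice, so a gene that fell less than the sum has a higher share. Because the tissue was sequenced in bulk, a share is not a level per macrophage. Shares of this kind are a description of these 12 mice, with no test.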

How the data were processed

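Brain RNA of 12 mice was depleted of ribosomal RNA and sequenced in pairs of reads. According to the submitters' processing notes and the study's methods, the authors trimmed with Trimmomatic 0.36, aligned with STAR 2.5.2b to mm10 and used featureCounts of Subread 1.5.2 to count the reads that mapped uniquely within exons. They deposited raw read counts per gene, not normalized. The annotation release and strand setting are not given in the sources used here. Unique mapping leaves out reads shared by near-identical genes.

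From these counts, genes were kept by filterByExpr, scaled by TMM and tested with the quasi-likelihood test of edgeR 4.0.16 in R 4.3.3 (robust, 6 against 6 mice, no covariates, Benjamini-Hochberg over 20290 genes, threshold 0.05). The standard error is the log2 fold change over the square root of F. Permutation tests used log2(CPM + 0.1), correlations a prior count of 2. FPKM divided TMM-scaled CPM by the exon length in kilobases (GENCODE M21, GRCm38, the build of mm10). Symbols matched 49056 of 49315 rows. Intervals come from the fit over these mice. Libraries of a group differed by more than sampling noise (chi-square per degree of freedom 2.00 to 27.8), so each counted as 1 sample, and the labels name no batch.

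The members and lists were chosen with earlier results of these data known. *Gpnmb*, *Cd68*, *F13a1*, *Plin1* and *Cidec* each stand in more than 1 list. Genes named are the 10, *Tet2*, up to 2 genes per direction and list with the smallest unadjusted p under 0.05, the 3 most alike per gene, and markers. The values of a further gene that the rule names are not reported here. *Nr1h2*, *Pparg* and *Adipoq*, and the shares of macrophage markers, were chosen after their values were seen. Alternatives were DESeq2 1.42.0, limma-voom (limma 3.58.1), other scalings and filters, a replicate block, other pseudocounts and lengths, and leaving out each mouse. Other data of the study were not analysed here.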

Additional observations from a re-analysis of the deposited data

Results flagged for a closer look

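Dixon's test was applied to the CPM of the 10 genes in each group of 6 mice, 20 groups of values in all, with the 95% limit for 6 values on the gap to the nearest mouse over the range. For normally distributed values chance passes the limit in about 1 of 20 groups. The CPM were not put on a log scale, where a high value stands out less. The flags were not recomputed on that scale, so they hold for CPM only. It was passed 6 times, by the highest mouse each time. WT replicate 2 stood apart for *Lpl* (171 CPM, the next WT mouse at 121), *Abca1* (1241, next 751), *Apoe* (4542, next 2710), *Soat1* (175, next 129) and *Plin2* (91.6, next 59.9). *Tet2*-KO replicate 5 stood apart for *Lpl* (138 CPM, the next *Tet2*-KO mouse at 53.0). The 5 flags of WT replicate 2 come from genes whose levels are correlated and are not independent of each other. The same mouse had the highest summed pan macrophage markers of its group (1052 CPM), as had *Tet2*-KO replicate 5 of its own (684 CPM), and the part of these in the flagged values was not tested.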

How the results depend on the processing

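In 198 refits of single genes under 20 alternatives the direction of the 10 genes reversed in 0, and 26 passed the adjusted threshold of 0.05. The median log2 fold change of the 10 was between -1.22 and -0.78 when single mice were left out. The number of genes called among all tested, 5 with edgeR, was 1464 with DESeq2 on the same genes (with a local dispersion trend), 902 with DESeq2 on every gene with a count (chosen after seeing the data), 2013 with limma-voom, 44 with no filter on low counts and 0 with at least 10 counts in every library (4241 at an unadjusted p under 0.05). *Msr1* has no value under that filter, and DESeq2 on the tested genes gave *Lpl* no adjusted p. Leaving out mice gave 0 to 2257 calls, with 2257 without *Tet2*-KO replicate 5, 13 without WT replicate 6, 2 without WT replicate 5, and 0 without any one of WT replicates 1, 3 and 4 or *Tet2*-KO replicates 1, 2, 3, 4 and 6 (3629 to 5386 at an unadjusted p under 0.05). Of the 10 genes, 3 were called with DESeq2 (*Cd36*, *Nr1h3*, *Plin2*), 5 with DESeq2 on every gene (with *Abcg1* and *Soat1* in addition), 9 with limma-voom (all but *Ch25h*), and 0 to 9 when mice were left out, 9 without *Tet2*-KO replicate 5 and 0 without any other mouse. Of the 89 listed lipid genes, 0 were called with edgeR, 16 and 14 with the DESeq2 fits, 26 with limma-voom and 0 to 27 when mice were left out, 27 without *Tet2*-KO replicate 5. Those higher at an unadjusted p under 0.05, 4 with all mice, were 7 with upper quartile scaling and 2 to 9 when mice were left out, with 2 without WT replicate 2 or 5 or *Tet2*-KO replicate 2 or 3 and 9 without *Tet2*-KO replicate 5. The cause of these differences was not tested. With the replicate block 0 genes passed (4329 at an unadjusted p under 0.05), and the median of the 10 was -1.10 with 9 at an unadjusted p under 0.05. The labels do not say whether the numbers of the mice pair them. Deviations of same-numbered mice correlated between -0.17 and 0.23, and 3 of 12 mice correlated best with their own number. These correlations cannot decide whether same-numbered mice shared a cage, day or batch. *Cd36*, *Msr1*, *Nr1h3* and *Ch25h* had at most 288 reads in a mouse.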

Other observations

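Shares of other marker sums give a different picture of the 10 genes. Relative to the summed homeostatic microglia markers of the same mouse, the median share was lower in *Tet2*-KO mice for all 10, from 0.271 times that of WT mice for *Msr1* to 0.926 times for *Soat1*, and the groups did not overlap for *Cd36*, *Apoe* and *Plin2*. *Apoe* stood at 278% to 391% of that sum in WT mice and at 154% to 275% in *Tet2*-KO mice. Relative to the summed activated phagocyte markers, the groups overlapped for all 10 genes and the median share was higher in *Tet2*-KO mice for 9 of them, by up to 3.32 times for *Soat1*, and lower for *Msr1* (0.797 times). The median of this sum was 995 CPM in WT mice and 216 CPM in *Tet2*-KO mice. Its largest parts in WT mice were *Spp1* (median 471 CPM, 45.6 in *Tet2*-KO mice) and *Gpnmb* (293 and 41.3 CPM). A share rises wherever the sum falls more than the gene, so it is not a level per cell. These shares were chosen after the values were seen and were not tested. How many of all tested genes would not overlap after the same divisions was not computed.
Beside the lists above, 6 pericyte and fibroblast markers had a median log2 fold change of -1.33 (summed 558 to 1147 CPM in WT mice, 196 to 687 in *Tet2*-KO mice), 3 tested neutrophil markers -2.16 (5.08 to 14.4 against 0.923 to 4.47 CPM over 6 markers) and 4 tested T cell markers -0.93. The 5 choroid plexus markers had a median of -0.27 and the 5 red blood cell markers of 0.54.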
